A study of Mus musculus with 6 samples.

Results

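The genes described here sense, break down or remove extracellular ATP, AMP, NAD or adenosine. They are the ATP-gated channels P2rx7 and P2rx4, the adenosine receptor Adora2a and adenosine deaminase, Ada. The others are the surface enzymes Entpd1 (CD39), Nt5e (CD73) and Cd38, which break down ATP, AMP and NAD. The genes were chosen by symbol, as every probe set that the array annotation assigns to exactly 1 of these 7 genes. That gave 5 of the 18194 genes on the arrays and 14 of 45101 probe sets: 3 each for P2rx7, Entpd1 and Nt5e, 4 for P2rx4 and 1 for Ada. Cd38 and Adora2a were not analysed here, because the annotation used here pairs no probe set with them. Of the 14 probe sets, 10 reached the intensity floor of 35.4 used to set aside dim signals, at least 1 for each of the 5 genes.

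The RNA came from CTLA-4 KO and wild type T cells with the 5C.C7 transgenic receptor, which recognises a peptide of moth cytochrome c (MCC). Donors of both genotypes lacked RAG2, so the transgene is their only T cell receptor, and carried the CD45.1 marker. Cells of 5C.C7 RAG2-/- CD45.1 CTLA-4-/- or 5C.C7 RAG2-/- CD45.1 donors were placed in B10.A recipients, which were immunized with MCC peptide and LPS, a bacterial activator of innate cells. The donor cells were sorted back 4 days later, and RNA of each genotype went onto 3 Affymetrix arrays, whose number limits the precision of every value. The labels call the arrays of a genotype biological replicates, without saying whether each came from its own animal, so a p-value here covers the spread of these arrays alone, some of which may be technical.

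ATP that leaves damaged or activated cells opens P2X channels on T cells, and the P2X7 channel at high ATP can lead to shedding of surface proteins and to cell death. CD39 cuts ATP and ADP to AMP, and CD73 turns AMP into adenosine, which raises cyclic AMP in T cells through the receptor encoded by Adora2a and dampens their activation. Adenosine is then taken up and phosphorylated by adenosine kinase or deaminated to inosine by adenosine deaminase. In mice, P2X7 is known for limiting follicular helper T cells of the gut, and CD73 together with the folate receptor FR4 for marking anergic helper cells.

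Deviations from the genotype means were shared by arrays with the same replicate number, so those arrays were treated as pairs in a limma fit with replicate number as a block. It is given beside a limma fit that ignores the replicate numbers. Ctla4, the targeted gene, had intensities of 812, 791 and 784 in CTLA-4 KO, against 5332, 4787 and 4587 in wild type (limma log2 difference −2.60 ± 0.10, SE, adjusted p = 1.45e-06). The place of its 1 probe set in the gene, inside or outside the deletion, was not examined, so this checks the labels only in part. T cell markers were present. Cd3e, Cd3d, Cd3g, Thy1 and Cd4 summed to intensities of 39568 to 41400 in CTLA-4 KO and 36955 to 43422 in wild type. Within that sum, Cd3g was lower in all CTLA-4 KO arrays, at 78.1% of wild type. Its log2 difference was −0.35 (limma adjusted p = 0.122, and 0.029 with the block). Cd3e, Cd3d, Thy1 and Cd4 overlapped between genotypes. Of the Actb control probes, the ratio of 5′ to 3′ signal, a sign of RNA integrity, was 0.567, 0.691 and 0.544 in CTLA-4 KO and 0.418, 0.410 and 0.584 in wild type. For the Gapdh control probes this ratio was lower, at 0.109, 0.205 and 0.178 in CTLA-4 KO and 0.103, 0.0955 and 0.250 in wild type. Xist was high in both arrays of pair 2, at 12599 in CTLA-4 KO and 14608 in wild type, and at most 106.7 on the other arrays, so the donors of pair 2 appear female.

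Without the block, 0 of the 10 member probe sets passed an adjusted p of 0.05 in limma, where 1.25% of all 27022 tested probe sets did. An unadjusted p under 0.05 was reached by 3 of the 10, against 15.6% of all. With the replicate block, 4 of the 10 passed, against 8.66% of all: 2 were higher in CTLA-4 KO, against 3.86% of all, and 2 were lower, against 4.8% of all. The higher ones both belong to P2rx7, and the lower ones to P2rx4 and Nt5e. The genotypes did not overlap for 3 of the 10, against 21% of all, and all 3 pairs went in 1 direction for 6 of the 10, against 44.5% of all. The 10 differences had a median of −0.18 on the log2 scale, against −0.041 over all tested probe sets, with 3 positive and 7 negative.

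The promoter sequences of the 3 genes called with the block are shown because they differed in opposite directions in that fit. P2rx7 and P2rx4 are also neighbours on chromosome 5. Without the block none of the 3 was called. Each is the 250 bases before a RefSeq start of GRCm38.p6, on the plus strand: chr5:122643677-122643926 for P2rx7, chr5:122707294-122707543 for P2rx4 and chr9:88327359-88327608 for Nt5e. Capitals mark matches on either strand to TGANTCA (AP-1), TGACG (a cyclic AMP response element half-site) and GGGCGG (Sp1).
P2rx7: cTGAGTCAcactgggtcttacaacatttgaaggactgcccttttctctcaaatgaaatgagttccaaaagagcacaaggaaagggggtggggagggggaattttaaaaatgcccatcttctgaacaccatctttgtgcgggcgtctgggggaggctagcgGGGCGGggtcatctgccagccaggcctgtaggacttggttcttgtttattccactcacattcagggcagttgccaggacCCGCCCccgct
P2rx4: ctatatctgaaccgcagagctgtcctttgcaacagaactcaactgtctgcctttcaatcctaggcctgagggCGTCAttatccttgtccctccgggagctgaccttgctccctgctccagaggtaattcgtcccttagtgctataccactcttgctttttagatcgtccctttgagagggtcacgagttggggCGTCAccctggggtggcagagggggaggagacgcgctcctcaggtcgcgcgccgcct
Nt5e: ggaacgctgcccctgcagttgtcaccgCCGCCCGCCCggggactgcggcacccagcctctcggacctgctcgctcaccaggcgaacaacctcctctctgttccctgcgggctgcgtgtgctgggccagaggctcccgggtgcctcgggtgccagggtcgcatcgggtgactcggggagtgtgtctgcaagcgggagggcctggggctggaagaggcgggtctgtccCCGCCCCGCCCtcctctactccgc
P2rx7 held 1 AP-1 match, found in 6.75% of 32851 such windows, and 2 Sp1 matches, a motif found in 32.7%. P2rx4 held 2 half-sites of the cyclic AMP response element, found in 17.8% of windows. Nt5e held 4 Sp1 matches, which overlap each other in pairs, and its window was 72% G and C, against 53.6% for P2rx7 and 57.2% for P2rx4. The motifs GGAAA (NFAT), TTCNNNGAA (STAT) and CAGACA (SMAD), in 55.6%, 7.02% and 17.1% of windows, were searched as well. P2rx7 held 1 NFAT match and P2rx4 and Nt5e 1 SMAD match each. A second RefSeq start of P2rx7 on the same strand had 0 matches to the 6 motifs in its window. These are matches of letters only.

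P2rx7, the channel opened by high ATP, was read by a probe set, 1419853_a_at, with intensities of 711, 818 and 1035 in CTLA-4 KO, against 446, 585 and 430 in wild type. All CTLA-4 KO arrays were above all wild type arrays. The mean was 855 ± 165 in CTLA-4 KO and 487 ± 85.1 in wild type (SD, n = 3 arrays each), so that CTLA-4 KO had 176% of the wild type intensity. The log2 difference was 0.79 (limma SE 0.17, adjusted p = 0.0606), and the block lowered the SE to 0.14 and the adjusted p to 0.00622. The pairs differed by 0.66, 0.47 and 1.24 on that scale, so pair 3 had the largest difference.

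The brightest P2rx7 probe set, 1439787_at, is the one that stands for P2rx7 in counts of genes. It had intensities of 4109, 3960 and 4634 in CTLA-4 KO, against 2427, 3661 and 2792 in wild type. The genotypes again did not overlap, although wild type replicate 2 came close to the CTLA-4 KO arrays. Means were 4234 ± 354 in CTLA-4 KO and 2960 ± 634 in wild type (SD, n = 3 arrays each), or 143% of wild type. The log2 difference was 0.53 (limma SE 0.14, adjusted p = 0.108), and the block gave an SE of 0.12 and an adjusted p = 0.0169. Pairs 1 and 3 differed by 0.76 and 0.73 and pair 2, the one that appears female, by 0.11. Without wild type replicate 2, the array nearest the CTLA-4 KO arrays, the limma adjusted p was 0.0463 with no block. Without any other single array it was 0.154 to 0.278. For 1419853_a_at no fit without 1 array passed, at limma adjusted p = 0.0583 to 0.22. The block fit of this probe set passed without pair 1 and without pair 2, and had adjusted p = 0.053 without pair 3, while 1419853_a_at passed without each of the pairs. Block fits without 1 of the pairs, here and below, leave 1 residual degree of freedom. Their limma adjusted p went as low as 2.12e-76, for Ctla4 without pair 1, so they are only a rough guide. Pair 2 had the smallest difference for both probe sets.

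The third P2rx7 probe set, 1422218_at, was dim, at 78.2, 106.7 and 80.3 in CTLA-4 KO and 55.3, 107.3 and 85.5 in wild type. Here the genotypes overlapped, and the log2 difference was 0.11, with a 95% interval of −0.47 to 0.68. That interval holds the difference of 1439787_at, 0.53, and not that of 1419853_a_at, 0.79, whose own interval of 0.40 to 1.18 overlaps it. Which P2rx7 transcripts each probe set reads was not examined.

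P2rx4, a channel of the same family that opens at lower ATP, went the other way in its brightest probe set, 1425525_a_at. Intensities were 370, 326 and 177 in CTLA-4 KO, against 443, 485 and 341 in wild type. CTLA-4 KO replicate 1 lay above wild type replicate 3, so the genotypes overlapped, but within each pair the CTLA-4 KO array was lower. Means were 291 ± 101 in CTLA-4 KO and 423 ± 73.8 in wild type (SD, n = 3 arrays each), or 68.8% of wild type. The log2 difference was −0.56 (limma SE 0.25, adjusted p = 0.318), and the block lowered the SE to 0.15 and the adjusted p to 0.0413. By pair it was −0.25, −0.55 and −0.89, and without CTLA-4 KO replicate 3 and without the block it was −0.26. With the block but without pair 1, 2 or 3 the adjusted p was 0.00646, 0.119 and 0.195, so the call needed pairs 2 and 3 together.

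The other P2rx4 probe sets gave no call. Probe set 1446429_at had 57.4, 80.1 and 56.4 in CTLA-4 KO and 103.1, 67.8 and 77.7 in wild type, a log2 difference of −0.29 with a 95% interval of −0.84 to 0.26. Probe set 1452527_a_at had 90.2, 66.3 and 41.0 in CTLA-4 KO and 58.6, 105.1 and 65.9 in wild type, a difference of −0.19 with an interval of −0.86 to 0.47. Both overlapped between genotypes and had 1 pair higher and 2 lower. The fourth, 1441772_at, was under the floor, at 22.5 to 39.8 in CTLA-4 KO and 15.9 to 54.6 in wild type.

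**Figure D1:**
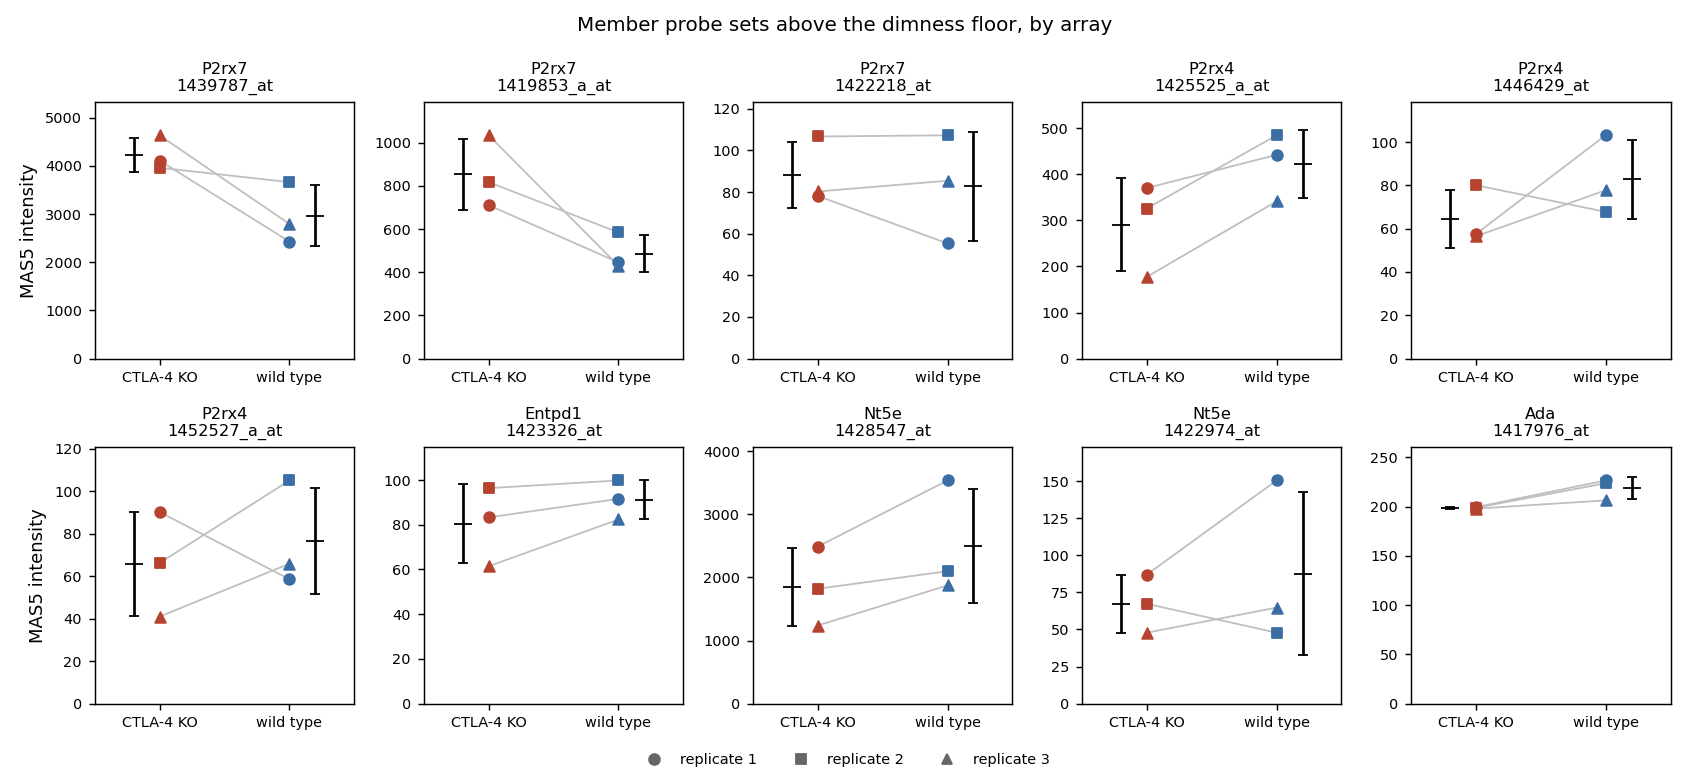
MAS5 intensity (vertical axes, linear and starting at 0) of the 10 member probe sets above the floor, for CTLA-4 KO (red) and wild type (blue). Each point is an array, its shape is the replicate number, grey lines join the arrays of a pair, and black bars are means ± SD of 3 arrays. P2rx7 1439787_at and 1419853_a_at are higher in every CTLA-4 KO array, and Nt5e 1428547_at is lower in CTLA-4 KO within every pair although the groups overlap.

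Nt5e encodes CD73, the enzyme that makes adenosine from AMP. Its probe set 1428547_at had intensities of 2488, 1821 and 1238 in CTLA-4 KO, against 3537, 2099 and 1874 in wild type. Replicate 1 was highest and replicate 3 lowest in both genotypes, and the genotypes overlapped, yet each CTLA-4 KO array was below its wild type partner. Means were 1849 ± 626 in CTLA-4 KO and 2503 ± 902 in wild type (SD, n = 3 arrays each), or 73.9% of wild type. The log2 difference was −0.43 (limma SE 0.27, adjusted p = 0.478). The block takes out the spread shared by a pair, and gave an SE of 0.10 and an adjusted p = 0.0194 in limma. The pairs differed by −0.50, −0.20 and −0.59. Without the block the size rested on single arrays: it was −0.16 without wild type replicate 1, −0.18 without CTLA-4 KO replicate 3 and −0.67 without CTLA-4 KO replicate 1. The call with the block was kept without pair 1 or pair 2 and not without pair 3, where the adjusted p was 0.0878.

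A second Nt5e probe set, 1422974_at, was dim, at 86.9, 67.3 and 47.8 in CTLA-4 KO and 150, 47.9 and 64.7 in wild type. Its log2 difference was −0.22, with a 95% interval of −1.004 to 0.571, and pair 2 went the other way. The third, 1459023_at, was under the floor, with 30.2, 3.15 and 4.06 in CTLA-4 KO and 9.95, 6.04 and 9.43 in wild type.

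Entpd1 encodes CD39, which supplies CD73 with AMP, and was dim in both genotypes. Its 1 probe set above the floor, 1423326_at, had 83.3, 96.4 and 61.4 in CTLA-4 KO and 91.6, 99.8 and 82.4 in wild type. The genotypes overlapped, although each pair was lower in CTLA-4 KO, by 0.12, 0.043 and 0.35 on the log2 scale. The difference was −0.17 (limma SE 0.23, adjusted p = 0.773, and 0.704 with the block), and its 95% interval of −0.68 to 0.34 leaves room for a change of the size seen for Nt5e. The other probe sets were under the floor: 1450939_at had 10.5 to 28.2 in CTLA-4 KO and 6.89 to 28.5 in wild type, and 1453586_at had 2.12 to 3.44 in CTLA-4 KO and 5.04 to 8.35 in wild type, which are levels near background.

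Ada, the enzyme that converts adenosine to inosine, had 199.3, 198.7 and 197.8 in CTLA-4 KO, against 226, 224 and 206 in wild type. The CTLA-4 KO arrays lay below the wild type arrays without overlap and almost on top of each other, with means of 199 ± 0.731 in CTLA-4 KO and 219 ± 10.9 in wild type (SD, n = 3 arrays each). At 90.8% of wild type the difference was small: −0.13 on the log2 scale (limma SE 0.16, adjusted p = 0.75, and 0.685 with the block), with a 95% interval of −0.49 to 0.23. An exact permutation test of the array means, with both directions counted, gave p = 0.1 for Ada and for both brighter P2rx7 probe sets, which is the smallest that its 20 arrangements allow.

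**Figure D2:**
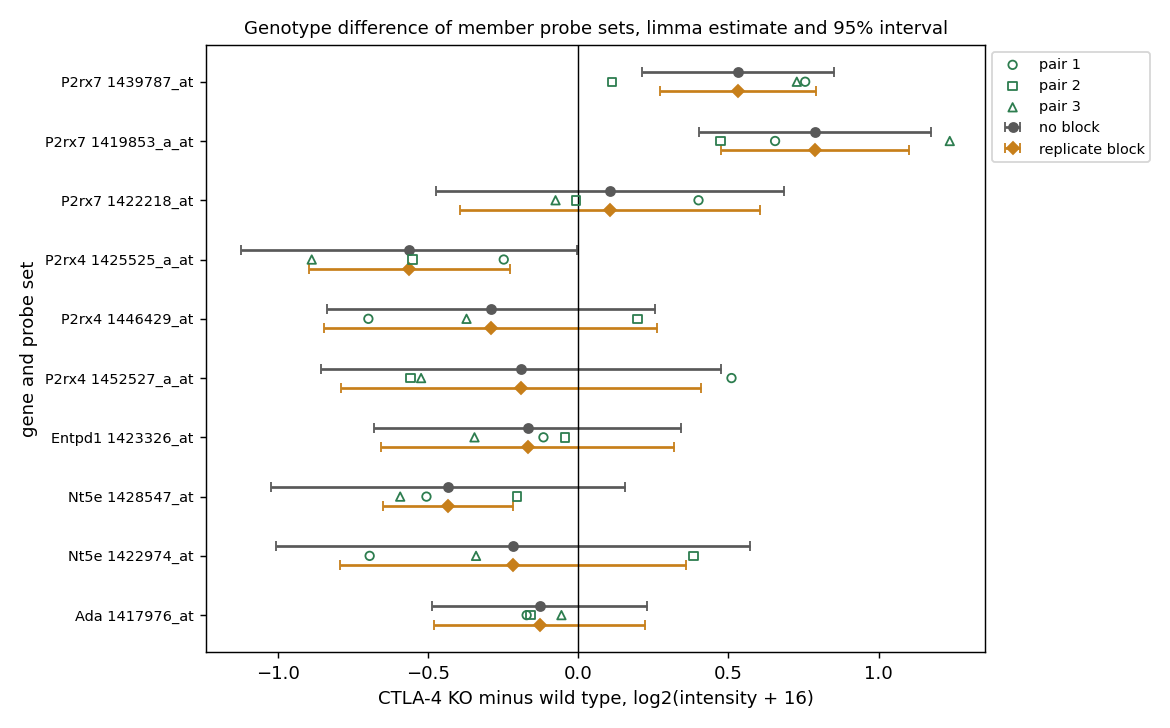
Difference between CTLA-4 KO and wild type on the log2(intensity + 16) scale (horizontal axis) for the 10 member probe sets (vertical axis). Filled symbols are limma estimates with 95% intervals, grey without and orange with the replicate block, and open green symbols are the 3 pairs. With the block, the intervals of P2rx7 1439787_at and 1419853_a_at lie above 0, those of P2rx4 1425525_a_at and Nt5e 1428547_at lie below 0, and the other 6 cross 0.

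The Actb 5′ to 3′ ratio was higher in CTLA-4 KO in pairs 1 and 2 and lower in pair 3. The ratio was added as a term to the fit without the block, where no member had passed before. The calls with the block were therefore not tested against it. With the term, again no member passed. The log2 differences were then 0.96 for 1419853_a_at and 0.65 for 1439787_at of P2rx7 (adjusted p = 0.248 and 0.343), −0.53 for P2rx4 1425525_a_at and −0.26 for Nt5e 1428547_at (adjusted p = 0.669 and 0.861). That fit has 3 residual degrees of freedom and called 21 probe sets in all.

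Several members are also expressed by other cells, so markers of those cells were read on the same arrays. Fewer cells of a type and less RNA per cell cannot be told apart in bulk RNA. Of 6 B cell markers, 5 had a probe set and 3 reached the floor, and the 5 summed to 163 to 280 in CTLA-4 KO and 224 to 379 in wild type. Myeloid markers (6 of 6 with a probe set) summed to 245 to 413 in CTLA-4 KO and 334 to 381 in wild type, and dendritic cell markers (5 of 5) to 158 to 205 in CTLA-4 KO and 208 to 297 in wild type. The CD8 T cell markers Cd8a and Cd8b1 summed to 315 to 513 in CTLA-4 KO and 262 to 422 in wild type. NK cell markers (3 of 4) summed to 81.1 to 87.6 in CTLA-4 KO and 45.6 to 126 in wild type. None of the markers of these lists that reached the floor passed with or without the block, and those under it were not in these fits. The dendritic cell sums did not overlap. Itgax, Zbtb46 and Xcr1, the last under the floor, were lower in all CTLA-4 KO arrays, while Flt3 and Siglech overlapped. The defining B cell gene Cd79a was at 1.74 to 13.2 in CTLA-4 KO and 4.41 to 25.7 in wild type, near background. Cd79b was brighter, at 78.0 to 108.5 in CTLA-4 KO and 100.5 to 117.9 in wild type. Cd79a, Cd79b, Ms4a1 and Blk overlapped between genotypes. Pax5, under the floor, was lower in all CTLA-4 KO arrays, at 2.30 to 34.8, against 44.5 to 48.7 in wild type. The part of these cells in the member values was not tested.

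CD73 is also a marker of regulatory and anergic T cells. Of the 4 regulatory T cell markers, which summed to 10759 to 12322 in CTLA-4 KO and 10673 to 12344 in wild type, Gpr83 fell (−1.61, limma adjusted p = 0.0054). Ikzf2, which makes up most of that sum, had 11230 ± 776 in CTLA-4 KO and 10783 ± 836 in wild type (SD), and it and Il2ra, at 0.06 and 0.18 on the log2 scale, did not pass. Foxp3, the defining gene, was dim, at 52.2, 42.8 and 48.8 in CTLA-4 KO and 110.9, 47.0 and 52.1 in wild type. Of the 4 anergy markers, which summed to 21086 to 22545 in CTLA-4 KO and 26562 to 28810 in wild type, Izumo1r, the folate receptor FR4, fell by 0.72 and Nrp1 by 0.58 on the log2 scale (limma adjusted p = 0.015 and 0.0128), while Dgka, at −0.062, and Rnf128, at 0.0085, did not pass. Izumo1r had 4134, 3757 and 3545 in CTLA-4 KO, against 5521, 6687 and 6668 in wild type. Whether such cells have a part in the Nt5e difference was not tested.

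The wider pathway was read from 67 other genes, of which 59 had a probe set and 42 were measured above the floor. Without the block 0 of the 42 passed in limma, against 1.69% of all 11990 genes. An unadjusted limma p under 0.05 was reached by 5 of the 42, against 1981 of the 11990. With the replicate block 4 passed, against 8.92% of all genes: 3 were higher in CTLA-4 KO, against 5.48% of all, and 1 was lower, against 3.44%. Groups did not overlap for 9 of the 42, against 22.8% of all genes. The median difference was −0.0038, with 21 positive and 21 negative, against 0.0018 over all genes. As a whole the list was thus near the background on each of these counts. The split rested on single pairs: with the block but without pair 1 there was 1 higher and 1 lower gene, without pair 2 there was 1 higher and 0 lower, and without pair 3 there were 0 higher and 3 lower, namely Pde4b, Pde4d and P2rx3.

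The 3 genes higher with the block were Adk, Pnp and Ampd2. Adk, adenosine kinase, which returns adenosine to AMP, had 7661, 7988 and 7625 in CTLA-4 KO, against 6582, 5814 and 5819 in wild type, with no overlap. Its difference was 0.35 (limma adjusted p = 0.0869, and 0.0255 with the block, which became 0.0451, 0.0531 and 0.102 without pair 1, 2 and 3). Another Adk probe set, 1416319_at, had 1485 ± 193 in CTLA-4 KO and 972 ± 83.6 in wild type (0.60, limma adjusted p = 0.0596, and 0.00724 with the block), and the others did not pass, at 0.43, 0.40 and −0.36.

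Pnp, the phosphorylase that splits inosine made by adenosine deaminase, had 5769, 6484 and 5793 in CTLA-4 KO, against 4476, 5266 and 4633 in wild type. Every CTLA-4 KO array was above every wild type array, and the difference was 0.33 (limma adjusted p = 0.142, and 0.029 with the block, which became 0.181, 0.0385 and 0.0971 without pair 1, 2 and 3). Ampd2, an AMP deaminase, had 2451, 2709 and 2526 in CTLA-4 KO, against 2081, 2264 and 1807 in wild type, again with no overlap (0.32, limma adjusted p = 0.203, and 0.0494 with the block). Without any 1 of the pairs Ampd2 did not pass, at limma adjusted p = 0.0633 to 0.255. Its other probe set differed by 0.23 and did not pass. Nt5c, a nucleotidase of the cell interior, had 5730 ± 182 in CTLA-4 KO and 4975 ± 451 in wild type and did not pass (SD, limma adjusted p = 0.333, and 0.172 with the block).

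The 1 lower gene was Pde4b, a phosphodiesterase that breaks down cyclic AMP, the messenger raised by adenosine receptors such as that of Adora2a. It had 2003, 2109 and 2136 in CTLA-4 KO, against 2477, 3041 and 2734 in wild type, with no overlap. The difference was −0.39 (limma adjusted p = 0.113, and 0.0193 with the block, which became 0.018, 0.0901 and 0.0398 without pair 1, 2 and 3). Of its other probe sets, 1442700_at differed by −0.39 (adjusted p = 0.0341 with the block) and 1422473_at by −0.21 (0.323). The related Pde4d had 535 ± 69.7 in CTLA-4 KO and 684 ± 117 in wild type and did not pass. The other 14 genes of cyclic AMP signalling, among them Gnas, Adcy7 and Prkaca, did not pass either in the probe set that represents them, and the 16 genes had a median of 0.0076. Dimmer probe sets of the adenylate cyclase Adcy7 (1420970_at, −0.47) and of the phosphodiesterase Pde7a (1438041_at, −0.32, and 1450933_at, −0.43) were lower in CTLA-4 KO with the block (limma adjusted p = 0.025, 0.0483 and 0.0304).

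Of these other pathway genes, none of the measured ones that release ATP, receive it or its products, or act on them at the surface passed with or without the block over all 3 pairs. Panx1, a channel that releases ATP, differed by 0.22 and Lrrc8a, a volume-regulated channel, by 0.21 on the log2 scale. Among P2X channels P2rx6 had 27.0 ± 8.65 in CTLA-4 KO and 55.9 ± 11.6 in wild type and P2rx3 31.1 ± 31.3 in CTLA-4 KO and 50.7 ± 18.4 in wild type, all near the floor. Of 7 P2Y receptors 2 were measured, P2ry14 (0.19) and P2ry4 (−0.011), both dim. Adam17 and Adam10, proteases that shed surface proteins, differed by 0.19 and −0.17. Of surface nucleotide hydrolases, Alpl differed by 0.26 and Enpp3 by −0.46 at intensities near the floor, and the adenosine receptor gene Adora3 by −0.18.

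**Figure D3:**
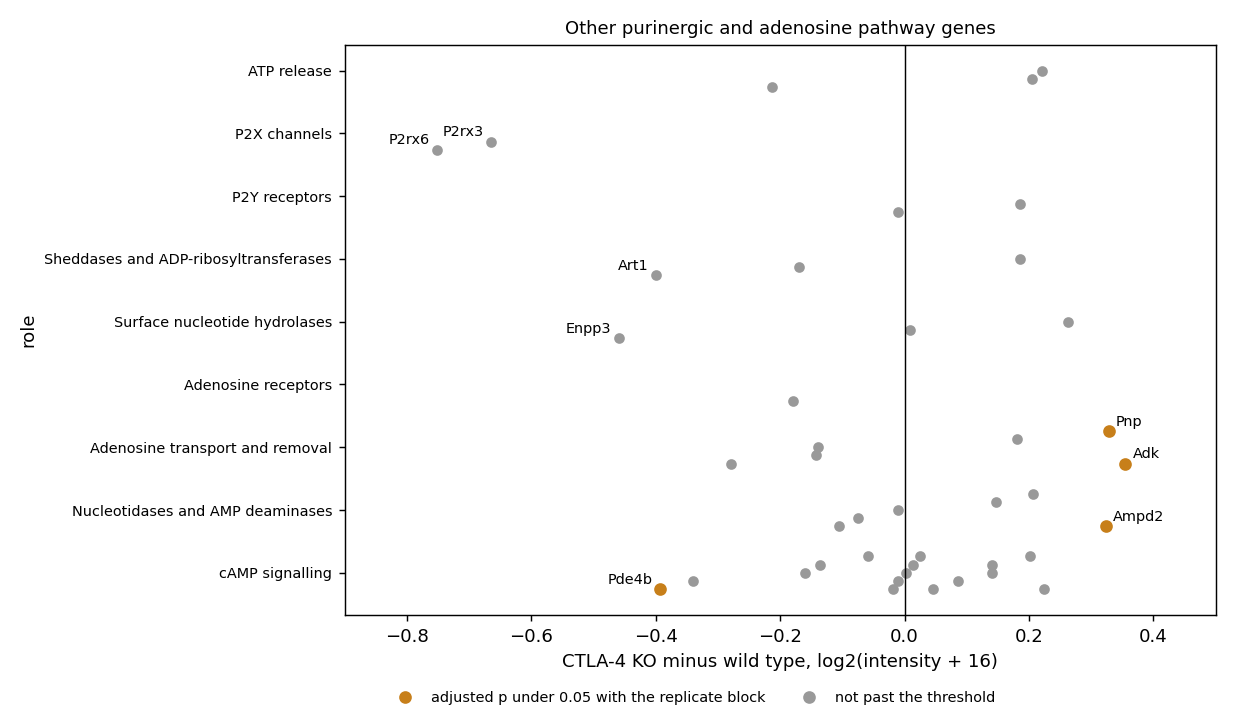
Difference between CTLA-4 KO and wild type on the log2(intensity + 16) scale (horizontal axis) of the 42 measured genes of the wider pathway, by role (vertical axis, points spread for legibility). Orange genes passed limma's adjusted p of 0.05 with the replicate block: Adk, Pnp and Ampd2 were higher and Pde4b lower. P2rx6, P2rx3, Enpp3 and Art1 lie further from 0 but did not pass.

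Over the 6 arrays, which share genotype and pair, the genes most like each member were found by Pearson's r among 11281 genes, as a description. For P2rx7 1439787_at they were Cdk5r1 (r = 0.996) and Otud6b (0.994). Cdk5r1, an activator of the kinase CDK5, had 412, 412 and 498 in CTLA-4 KO, against 177, 335 and 235 in wild type, with wild type replicate 2 highest of its group as for P2rx7. For P2rx4 they were Ncoa6 (0.997) and Nat8f1 (0.984), for Entpd1 Nudt9 (0.992) and Fkbp7 (0.987), for Nt5e Amer1 (0.994) and Pik3c3 (0.992), and for Ada Fbxo38 (0.992) and Fndc3a (0.989). Between 21 and 73 of the 11281 genes had an r over 0.95 with each member, so an r of that size does not single out the genes named.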

How the data were processed

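Sorted T cells gave 2 µg of total RNA for each Affymetrix array. The authors deposited an intensity for every probe set on every array, 45101 by 6. Partek and MAS5 are named in the submitters' processing notes. The mean of each array, without the top and bottom 2%, is 500.003. For this work intensities became log2(intensity + 16), a scale that understates changes of dim genes. After 64 controls were dropped, 27022 probe sets lay at or above the 40th percentile of mean log2 value, an intensity of 35.4.

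Genotypes were compared in limma 3.58.1 under R 4.3.3 (eBayes with an intensity trend), two-sided, with Benjamini-Hochberg adjustment across the 27022, after a test on simulated data. The planned model has no block. Same-numbered arrays, by the numbers in the titles, had deviations correlated at 0.371, 0.24 and 0.254 in pairs 1, 2 and 3, each over 0.1, and blocked values are therefore printed too. Every difference is that of CTLA-4 KO over wild type.

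Symbols come from the array annotation, updated by gene ID: 34958 probe sets name 1 gene, 932 several and 9211 none. The probe set with the highest mean log2 value stands for a gene. The text names all members, Ctla4, pathway genes called in either fit, up to 2 genes of lowest p in each role, and the 2 genes most like each member. Other pathway genes, secondary probe sets, single markers and the neighbours of P2rx7 and P2rx4 were named after their values were seen. Members, lists and tests were chosen with earlier results of these data known. Promoter windows and gene order are RefSeq's for GRCm38.p6. Alternatives covered pseudocount, filter, scaling, moderation, weights, threshold, the block and each array left out.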

Additional observations from a re-analysis of the deposited data

How the results depend on the processing

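With the replicate block the calls were 4 of 10 member probe sets, 3 of 5 member genes, 4 of 42 pathway genes and 2341 of 27022 probe sets in all. Without it they were 0, 0, 0 and 339. The shares over all were 8.66% of probe sets and 8.92% of genes with the block, and 1.25% and 1.69% without it. With the block and without 1 pair, an alternative added after seeing the data that leaves 1 residual degree of freedom, they were 1 to 4, 0 to 3, 1 to 3 and 1662 to 2229 (2229, 1662 and 1684 without pair 1, 2 and 3). Without the block and with the 60th percentile floor, 1 of the 5 member probe sets tested passed, against 483 of 18015 in all. Also without the block, 1 of 10 passed under median centring, with array weights and at a threshold of 0.10. The totals there were 303, 521 and 832 of 27022. At a threshold of 0.10, 1 of 42 pathway genes passed too. Leaving out 1 array gave 0 to 1 member probe sets, 0 to 1 member genes, 0 pathway genes and 62 to 217 probe sets in all. The total was 111 with no dimness filter, 20 with no intensity trend, 0 with no moderation, 521 with array weights, 46 in replicates 1 and 3 alone, 21 with the Actb ratio as a term and 832 at a threshold of 0.10. Ctla4 had −2.60 and adjusted p = 0.0538 with no moderation, and passed in the other fits. Median centring gave 303 calls, 247 higher and 56 lower in CTLA-4 KO, against 212 and 127. Turned signs occurred for dim, uncalled probe sets: P2rx7 1422218_at with the Actb term (−0.067), without CTLA-4 KO replicate 2 (−0.016) or wild type replicate 1 (−0.11), and with the block without pair 1 (−0.041), P2rx4 1452527_a_at without CTLA-4 KO replicate 3 (0.048) or wild type replicate 2 (0.020), and Nt5e 1422974_at without wild type replicate 1 (0.19) and with the block without pair 1 (0.022). Leaving out 1 array left these differences within −0.11 to 0.28, −0.40 to 0.048 and −0.50 to 0.19. The causes were not tested. The other 7 member probe sets kept their direction in every fit, though leaving out 1 array put P2rx4 1425525_a_at at −0.76 to −0.26 and Nt5e 1428547_at at −0.67 to −0.16. Dim probe sets limit what can be said of Entpd1.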

Other observations

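P2rx7 and P2rx4 are adjacent in the RefSeq gene order of chromosome 5, between Ift81, a gene of ciliary transport, and Camkk2, a kinase of calcium signalling. With the replicate block P2rx7 was higher and P2rx4 lower in CTLA-4 KO, as given above. The outer neighbours, looked up after those values were seen, did not pass. Ift81 had 183, 130 and 183 in CTLA-4 KO, against 155, 144 and 138 in wild type (log2 difference 0.15, limma adjusted p = 0.76, and 0.681 with the block). Camkk2 had 1327, 1038 and 1330 in CTLA-4 KO, against 1240, 1025 and 1134 in wild type (0.11, limma adjusted p = 0.738, and 0.539 with the block). Whether the opposite differences of P2rx7 and P2rx4 are related was not tested.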
